A study of Mus musculus with 6 samples.

Results

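Osteoclast effector genes are genes that bone-resorbing cells switch on to fuse, attach and dissolve bone. They were followed here in polyadenylated RNA of primary cells of the mouse retinal pigment epithelium (RPE), the pigmented layer that supports the photoreceptors. The genes were chosen by symbol: Acp5, Ctsk, Oscar, Dcstamp, Ocstamp, Siglec15, Ubash3b, Jdp2, Snx10 and Sh3pxd2a. Of these 10 symbols, 9 were among the 28043 genes measured, and Siglec15 was not analysed here. The study compared 3 libraries from normal mice (Normal) with 3 whose treatment is labelled PVR, for proliferative vitreoretinopathy, in which scar membranes form in the eye (of the traumatic kind, per the title). No source used here gives the strain, age, means of injury or time after it, nor whether animals were pooled. Its title places the work in the context of RANK and NFATc1 signalling, so the comparison addresses whether genes that lie downstream of that pathway in osteoclasts differ between the preparations.

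Osteoclasts are multinucleated cells that form by fusion of precursors of the macrophage lineage. The ligand RANKL binds the receptor RANK on these precursors, and signals from RANK and from costimulatory receptors converge on the transcription factor NFATc1, which switches on the genes for fusion, attachment, acid secretion and matrix digestion. Few of these genes are specific to osteoclasts: macrophages, fibroblasts and other cells use several of them for lysosomal and cytoskeletal work.

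Values are normalised read counts, that is, reads divided by 1 size factor per library, and are given as mean ± SD of 3 libraries unless single libraries are named. Library depth ran from 15269983 to 19173187 reads counted on genes, and a count of 0 in a library allows a level of up to 3 reads, or 2.72 to 3.42 normalised counts. Log2 changes are differences, PVR minus Normal, of log2(normalised count + 1), a scale that shrinks the change of genes with few reads. A gene was called when its adjusted p from limma, corrected by Benjamini-Hochberg over all genes tested, was under 0.05. The labels do not say whether replicates came from separate animals, and p-values therefore measure only the spread among these libraries, part or all of which may be technical. The RPE markers Rpe65, Rlbp1, Ttr, Lrat, Rgr, Tyrp1, Pmel and Best1 were all detected, with a sum of 771057 to 826201 normalised counts in Normal and 548525 to 598706 in PVR, although Best1, a chloride channel gene of RPE, had a mean of only 12.0 in Normal. Rpe65, Rlbp1, Lrat and Rgr were called lower, and the other 4 RPE markers were not called. Ttr stood higher in every PVR library than in any Normal library (means 302541 and 262990). In bulk RNA, fewer cells of a type and less RNA per cell cannot be told apart. A pair of libraries stood apart from their groups: Normal replicate 2 had the highest sums of endothelial and photoreceptor markers of its group (1.63 and 1.91 times the Normal mean), and PVR replicate 3 had the lowest sum of macrophage markers of its group, 0.497 times the mean of the other PVR libraries over the 16 markers.

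NFATc1 and AP-1 factors bind short sequence motifs, so the 250 bases before 1 RefSeq transcription start per gene (build GRCm38.p6) are shown. The genes are the 3 with the largest fitted rises among those called, and Oscar, which had few reads in every library. Capitals mark GGAAA, the core of NFAT sites, on either strand (TTTCC where it lies on the other), and every sequence runs 5′ to 3′ on the gene's own strand.
Ctsk, chr3:95498960-95499209, plus strand: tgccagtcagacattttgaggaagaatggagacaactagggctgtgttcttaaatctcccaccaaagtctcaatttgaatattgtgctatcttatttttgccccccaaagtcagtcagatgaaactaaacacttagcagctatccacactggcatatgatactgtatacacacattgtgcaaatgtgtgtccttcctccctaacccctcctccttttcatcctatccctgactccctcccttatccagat
Acp5, chr9:22135747-22135996, minus strand: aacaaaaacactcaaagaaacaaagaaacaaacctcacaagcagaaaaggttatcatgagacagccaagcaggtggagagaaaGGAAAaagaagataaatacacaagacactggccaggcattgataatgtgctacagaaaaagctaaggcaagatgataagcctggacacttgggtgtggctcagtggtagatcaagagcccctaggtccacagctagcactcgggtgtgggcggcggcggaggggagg
Ubash3b, chr9:41158063-41158312, minus strand: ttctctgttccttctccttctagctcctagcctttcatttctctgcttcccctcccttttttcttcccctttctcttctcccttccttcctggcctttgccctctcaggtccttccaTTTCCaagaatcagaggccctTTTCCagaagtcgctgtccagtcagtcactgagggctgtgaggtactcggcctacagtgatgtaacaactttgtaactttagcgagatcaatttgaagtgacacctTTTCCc
Oscar, chr7:3616158-3616407, minus strand: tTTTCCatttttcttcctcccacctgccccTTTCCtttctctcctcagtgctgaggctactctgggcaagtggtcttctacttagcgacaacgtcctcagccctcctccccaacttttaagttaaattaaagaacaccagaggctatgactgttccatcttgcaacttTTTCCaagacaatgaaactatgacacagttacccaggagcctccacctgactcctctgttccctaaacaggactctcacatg
The window of Ctsk holds 0 matches to GGAAA, the Acp5 window shown holds 1, and those shown for Ubash3b and Oscar hold 3 each. The other Acp5 windows hold 2 and 1 matches, and the other Ubash3b window holds 1. In the Ubash3b window shown the matches begin 133, 112 and 6 bases before the start, and in Oscar 249, 220 and 82 bases before it. Promoter windows were at hand for 6 of the genes, 13 windows in all since some genes have several starts, and 10 of the 13 hold GGAAA. The windows of Snx10 overlap in part, and 1 GGAAA match is counted in 2 of them. Of all 32851 windows of this length 55.6% hold it. The AP-1 motif TGANTCA, on either strand, lies in 1 of the 13, a window of Snx10, against 6.75% of all windows. Of the E-box motifs bound by MITF, CACGTG lies in 0 of the 13 (6.02% of all windows) and CATGTG in 2 (12.3%), a second Acp5 window and that of Oscar. No GGAAA match overlapped a TGANTCA match in these windows, and a match is only a run of letters, not a bound site.

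Of the 9 genes, 7 had enough reads to be tested. The resorption genes Acp5 and Ctsk rose, as did the signalling gene Ubash3b and, by smaller amounts, the vesicle gene Snx10 and the podosome gene Sh3pxd2a. None of the 7 was called lower by limma, edgeR or DESeq2, nor was any lower at an unadjusted p under 0.05 (0 genes by each). The fusion gene Ocstamp and the transcription factor gene Jdp2 were not called, and Oscar and the fusion gene Dcstamp had too few reads for the test. Thus 5 of 7 tested genes were called higher, where 17.9% of the 15766 genes tested were called higher and 12.9% lower. The median log2 change of the 7 was 1.27, beside -0.02 over all genes tested. The genes were chosen with earlier results of these data known, so these shares and medians are descriptive only. The 3 PVR values lay above the 3 Normal values for 6 of the 9 genes (Acp5, Ctsk, Dcstamp, Ubash3b, Snx10 and Sh3pxd2a), as they did for 24.7% of all genes tested. The same 5 were called by edgeR, where 17.7% of all genes were higher, and by DESeq2 (18.3%). Limma without Normal replicate 2 and PVR replicate 3 also called these 5, and called 4218 of all 15766 genes in either direction. With no filter on low counts 4 of the 9 were called, where 10.8% of 28043 genes were higher.

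**Figure D1:**
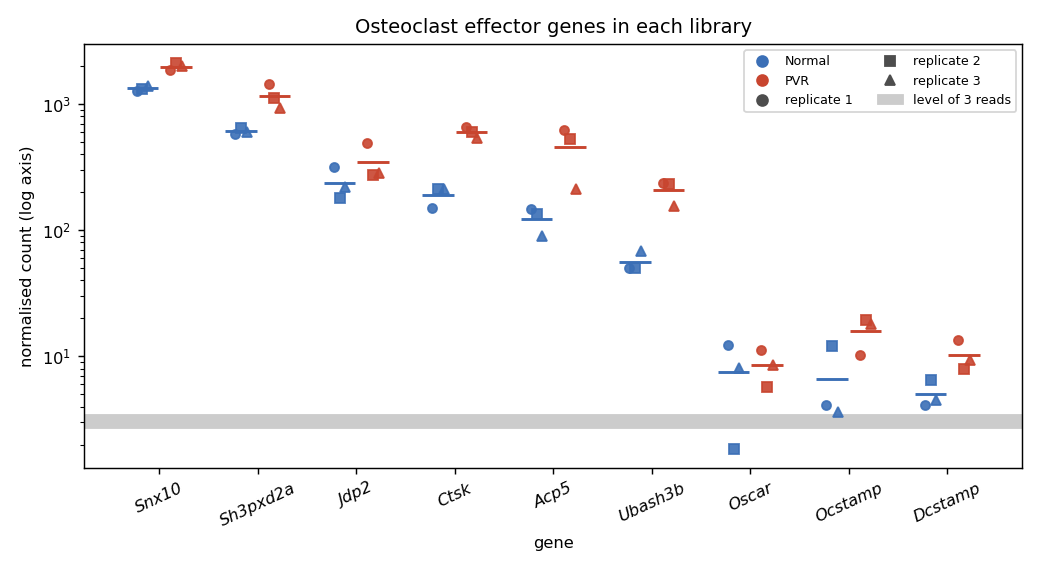
Normalised counts (log axis) of the 9 genes in each library, with Normal in blue, PVR in red, 1 marker shape per replicate and a bar at each group mean. Grey marks the level of 3 reads per library, 2.72 to 3.42. Oscar, Ocstamp and Dcstamp lie within about the lowest decade, and the Oscar value of Normal replicate 2 (1.85) lies below the grey band.

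Ctsk encodes cathepsin K, the cysteine protease with which osteoclasts digest bone collagen (ENSMUSG00000028111.4, chromosome 3, 95499256 to 95509362 on GRCm38). Normal replicates 1 to 3 stood at 149, 212 and 212 normalised counts, and PVR replicates 1 to 3 at 664, 603 and 538. The groups did not overlap, and the lowest read number of a PVR library was 529. The fold change was 3.16 (95% interval 2.44 to 4.10, log2 change 1.66 with SE 0.17, limma adjusted p = 0.000151). Ctsk was called in all 17 alternative settings, with log2 changes from 1.49 to 1.82. Among same-numbered libraries the PVR to Normal ratio was 4.44, 2.84 and 2.54.

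Acp5 encodes tartrate-resistant acid phosphatase, the enzyme stained to identify osteoclasts, which activated macrophages also make (ENSMUSG00000001348.15, chromosome 9, 22126727 to 22135711). Normal replicates 1 to 3 had normalised counts of 148, 133 and 89.7. In PVR they were 627 and 527 in replicates 1 and 2 but 213 in replicate 3. The groups did not overlap, yet PVR replicate 3 stood at 0.37 times the mean of the other PVR libraries, the lowest such ratio of the 9 genes. The fold change of 3.39 has a wide interval, 1.66 to 6.92 (log2 change 1.76 with SE 0.43, limma adjusted p = 0.0225). Acp5 was no longer called by limma when Normal replicate 2 (adjusted p = 0.0541), Normal replicate 3 (0.0683) or PVR replicate 2 (0.0823) was left out, or with no filter on low counts (0.0728). Of the exon bases of Acp5, 6.75% are shared with 6530413G14Rik on the opposite strand, and no source used here says whether counting used strand.

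Ubash3b encodes a phosphatase (Sts-1) that removes phosphate from Syk-family kinases and so damps signals from costimulatory receptors (ENSMUSG00000032020.15, chromosome 9, 41011098 to 41161697). Normal replicates 1 to 3 had 50.5, 50.01 and 68.9 normalised counts and PVR replicates 1 to 3 had 235, 232 and 155. The lowest PVR library was 2.25 times the highest Normal library. The rise was 3.60-fold with an interval from 2.48 to 5.23 (limma adjusted p = 0.000522), or 1.85 on the log2 scale (SE 0.24). Ubash3a, its relative in lymphocytes, had 0 to 2 reads in any library. Syk, the kinase on which Sts-1 acts, rose from 68.8 ± 7.79 to 962 ± 321.

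Sh3pxd2a encodes Tks5, a scaffold of podosomes and invadopodia, the actin-rich contacts with which osteoclasts and invading cells attach to and degrade matrix (ENSMUSG00000053617.12, chromosome 19, 47260174 to 47464401). The normalised counts were 578, 647 and 596 in the Normal libraries and 1444, 1114 and 938 in the PVR libraries, in the order of their numbers. The PVR libraries differed among themselves more than the Normal libraries did (SD 257 against 35.8) but all lay above them. The fold change was 1.89, with an interval from 1.49 to 2.39 (limma adjusted p = 0.0017), or 0.92 on the log2 scale (SE 0.15). Its paralogue Sh3pxd2b, which encodes Tks4, rose from 1496 ± 120.0 to 3604 ± 718, by 1.25 on the log2 scale (limma adjusted p = 0.00034).

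Snx10 encodes a sorting nexin of endosomes that osteoclasts need for acid secretion, and whose loss causes osteopetrosis (ENSMUSG00000038301.15, chromosome 6, 51523901 to 51590679). Before any correction for length it had the highest normalised counts of the 9 genes, 1269, 1328 and 1394 in the Normal libraries. PVR replicates 1 to 3 had 1849, 2108 and 1989. The groups did not overlap and each varied little (coefficient of variation 4.71% in Normal and 6.54% in PVR). The rise was the smallest of the 5, 1.49-fold with an interval from 1.28 to 1.74 (limma adjusted p = 0.00208), or 0.57 on the log2 scale (SE 0.10). The ratio in same-numbered libraries ran from 1.43 to 1.59. Ubash3b, Sh3pxd2a and Snx10, like Ctsk, were called in all 17 alternative settings.

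Jdp2 encodes an AP-1 family repressor and chromatin factor that takes part in osteoclast differentiation (ENSMUSG00000034271.16, chromosome 12, 85599027 to 85639878). Normal replicates 1 to 3 had 315, 180 and 219 normalised counts, and PVR replicates 1 to 3 had 494, 276 and 282. The groups overlapped, since Normal replicate 1 exceeded PVR replicates 2 and 3. The log2 change of 0.54 (SE 0.28, 95% interval -0.10 to 1.18) did not pass the test (limma adjusted p = 0.18). Within same-numbered libraries the PVR value was higher in 3 of 3 pairs, by 1.57, 1.53 and 1.29 times. With the replicate number as a block Jdp2 was called (limma adjusted p = 0.0156, with the same log2 change). Of its exon bases 7.68% are shared with Gm47863 on the opposite strand.

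**Figure D2:**
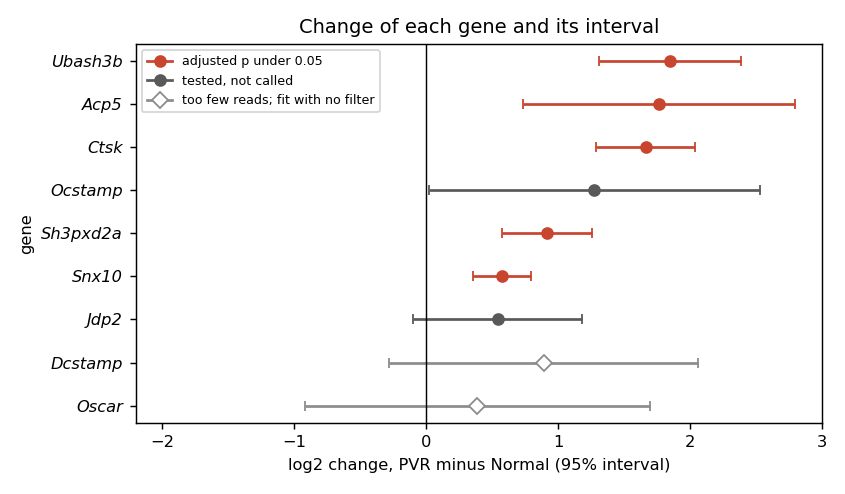
Log2 change, PVR minus Normal, with its 95% interval for each gene. Red points passed the test, dark grey points did not, and open diamonds are the 2 genes with too few reads, from the fit with no filter. The intervals of Jdp2, Dcstamp and Oscar cross 0, and that of Ocstamp starts at 0.02.

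The fusion genes and Oscar rest on few reads. Dcstamp and Ocstamp encode membrane proteins that precursors need in order to fuse into multinucleated osteoclasts. Ocstamp (chromosome 2, 165393760 to 165400405) had 4, 13 and 4 reads in the Normal libraries 1 to 3 and 10, 17 and 19 in the PVR libraries. Normal replicate 2 lay above PVR replicate 1, so the groups overlapped. The log2 change was 1.27 (SE 0.56, 95% interval 0.02 to 2.53) and did not pass the test (limma adjusted p = 0.114). It passed only without Normal replicate 2 (limma adjusted p = 0.0445, log2 change 1.75). Summed over libraries, 21 reads in Normal and 46 in PVR gave a ratio per size factor of 2.38, with an exact 95% counting interval from 1.39 to 4.19. Such intervals and floors hold for counting error alone, because reads that carry no molecular identifier are not independent molecules.

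Dcstamp (chromosome 15, 39745930 to 39760938) had 4, 7 and 5 reads in the Normal libraries 1 to 3 and 13, 7 and 10 in the PVR libraries. Its normalised counts did not overlap (at most 6.48 in Normal and at least 7.97 in PVR), but PVR replicate 2 and Normal replicate 2 held the same number of reads. The sums of 16 and 30 reads gave a ratio of 2.03, with a counting interval from 1.07 to 3.99. An exact two-sided permutation test of the 6 libraries gave p = 0.1, the smallest that 3 libraries against 3 allow. With no filter the log2 change was 0.89 with an interval from -0.28 to 2.06 (limma adjusted p = 0.338).

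Oscar encodes the osteoclast-associated receptor, which binds collagen and signals through the adaptor FcRγ (chromosome 7, 3609813 to 3616157). Normal replicates 1 to 3 had 12, 2 and 9 reads and PVR replicates 1 to 3 had 11, 5 and 9. The 3 PVR values lay within the range of the Normal values, and the sums were 23 and 25 reads. The ratio of 1.18 has a counting interval from 0.64 to 2.17, so a 2-fold rise lies inside it and a 3-fold rise outside it as far as counting error goes. With no filter the log2 change was 0.39, with an interval from -0.92 to 1.70 (limma adjusted p = 0.74). That interval, which includes the spread among libraries, also holds a 3-fold rise. Fcer1g, the adaptor gene of Oscar, rose in the same libraries, from 31.7 ± 7.39 to 877 ± 422. The log2 change of Fcer1g was 4.64 (limma adjusted p = 0.000171).

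Levels of different genes were compared per kilobase of annotated exon, taken over all transcripts of a gene (9300 bases for Snx10 and 1512 for Ctsk). In Normal the order was Snx10 (143 ± 6.73 normalised counts per kilobase), Ctsk (126 ± 23.9), Jdp2 (111 ± 32.5), Acp5 (61.0 ± 15.02), Sh3pxd2a (52.4 ± 3.09), Ubash3b (7.71 ± 1.47), Oscar (4.04 ± 2.87), Dcstamp (1.89 ± 0.47) and Ocstamp (1.80 ± 1.29). The ranges of Snx10, Ctsk and Jdp2 overlapped from neighbour to neighbour, as did those of Acp5 and Sh3pxd2a and those of the 3 lowest genes. In PVR Ctsk came first (398 ± 41.6 normalised counts per kilobase) and its range lay above that of every other gene. Before the correction for length Snx10 stood above Ctsk in PVR (means 1982 and 602), so their order depends on the exon lengths used. Acp5 (225 ± 106), Snx10 (213 ± 13.9) and Jdp2 (163 ± 57.9) followed with overlapping ranges. Sh3pxd2a (101 ± 22.1) and Ubash3b (28.3 ± 6.20) each stood apart from their neighbours, and Oscar, Ocstamp and Dcstamp, between 3.85 and 4.61, did not. The fusion genes and Oscar were therefore below the other genes in both groups on the scale per kilobase. The highest Oscar library had 6.70 in Normal and 6.13 in PVR, against 6.83 and 21.1 in the lowest Ubash3b library.

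Markers of other cells moved in the same libraries. Of 16 macrophage markers 14 rose and 2 fell (Csf1r and Mertk, whose calls were each lost without Normal replicate 3 or PVR replicate 1, among others), and none was at 0 reads in a whole group. With the replicate number as a block the lysosomal marker Cd68 was not called (limma adjusted p = 0.0519). The 16 markers summed to 15458 to 17474 normalised counts in Normal and 40628 to 94383 in PVR, and in PVR replicates 1 to 3 that sum was 4.18, 5.70 and 2.45 times its Normal mean. Csf1r and Mertk, with 10038 and 5048 normalised counts, made up most of the sum in Normal. Leaving out both because they fell, a choice made after their values were seen, gave a sum of 1011 to 2201 in Normal and 28707 to 82535 in PVR, or 40.2, 56.3 and 19.6 times its Normal mean. The genes that rose are set beside these sums: Acp5 was 5.06, 4.26 and 1.72 times its Normal mean, Ubash3b 4.16, 4.11 and 2.74 times, Ctsk 3.47, 3.15 and 2.82 times, Sh3pxd2a 2.38, 1.83 and 1.54 times, and Snx10 1.39, 1.58 and 1.495 times. These factors lay below those of the 14 markers in every PVR library, while Acp5 in PVR replicate 1 and Ubash3b and Ctsk in PVR replicate 3 exceeded those of all 16. PVR replicate 3, the lowest PVR library for the macrophage sum (0.497 times the mean of the other PVR libraries over 16 markers and 0.41 times over 14), was also the lowest for Acp5, Ubash3b, Ctsk and Sh3pxd2a but not for Snx10, for which it was 1.01 times that mean.

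**Figure D3:**
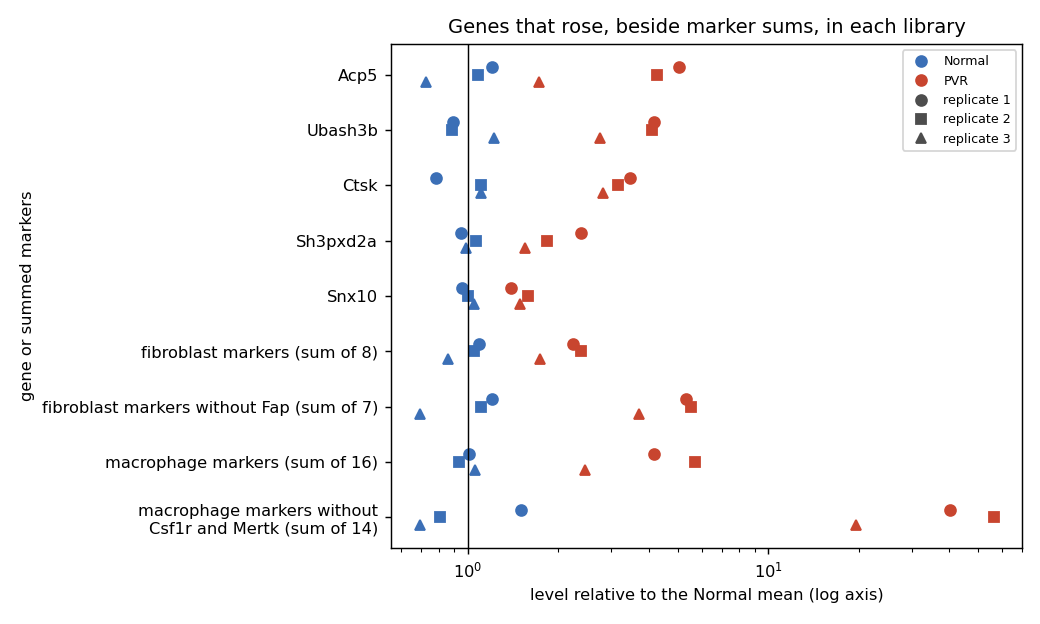
Level in each library relative to the Normal mean (log axis) of the 5 genes that rose and of the fibroblast and macrophage marker sums, each with and without the markers that fell, Normal in blue, PVR in red, 1 marker shape per replicate. PVR replicate 3 (triangles) is the lowest PVR library in every line but that of Snx10.

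Fibroblasts also express Ctsk. Of 8 fibroblast markers 6 rose and Fap fell. The calls of Dcn and Pi16 were each lost with no filter on low counts and without PVR replicate 1 or 2, among other settings. All 8 markers summed to 9026 to 11487 normalised counts in Normal and 18302 to 25054 in PVR. In PVR replicates 1 to 3 that sum was 2.24, 2.38 and 1.74 times its Normal mean. The factors of Ctsk were larger in every PVR library (3.47, 3.15 and 2.82). Fap alone had a mean of 6765 in Normal and was left out because it fell, a choice made after its values were seen. Without Fap the sum was 5.33, 5.55 and 3.71 times its Normal mean, above the factors of Ctsk. Of the 4 osteoclast markers outside the 9 genes that were measured, the proton pump subunit gene Atp6v0d2 (7.61 ± 7.05 to 435 ± 259) and the gelatinase gene Mmp9 (7.70 ± 2.87 to 144 ± 88.9) rose. Itgb3, the integrin beta subunit of the osteoclast vitronectin receptor, was at 132 ± 24.6 and 134 ± 23.3 (log2 change 0.02, 95% interval -0.46 to 0.50), and Tm4sf19 had too few reads (6.38 to 14.3). The calcitonin receptor gene Calcr was not analysed here. Of 5 osteoblast markers measured, Sp7 (9.03 to 28.0, a call that of the 6 single-library omissions only that of Normal replicate 3 kept) and Runx2 (11.4 to 80.8) rose, and the list sum was 60.8 to 110 in Normal and 157 to 230 in PVR. T-cell markers summed to 6.48 to 24.7 in Normal and 51.0 to 52.5 in PVR, B-cell markers to 2.78 to 9.28 and 10.3 to 33.0, and neutrophil markers to 8.16 to 26.8 and 192 to 442. Cd3g, Cd79b, Ms4a1 and Retnlg were at 0 reads in all Normal libraries. Pericyte markers summed to 2787 to 3140 in Normal and 2566 to 3335 in PVR, endothelial markers to 140 to 497 and 335 to 457, photoreceptor markers to 140 to 899 and 268 to 849, and Müller glia markers to 141369 to 147356 and 123269 to 178752. In Normal, Apoe and Glul had means of 110033 and 34332 and made up nearly all of the Müller glia sum. The Müller glia markers Slc1a3, Gfap and Aqp4 had Normal means of only 52.6, 18.3 and 32.7. The part of any of these cell types in the changes above was not tested.

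Further genes of the osteoclast programme were read from the same fit. These lists were drawn up with earlier results of these data known, and their counts are set beside the 17.9% of all genes that were called higher. All 12 costimulatory adaptor and kinase genes rose, with a median log2 change of 3.72. Trem2, a receptor that pairs with the adaptor DAP12, rose from 31.6 ± 7.14 to 1365 ± 598, and Lcp2, an adaptor downstream of Syk, from 11.3 ± 4.605 to 193 ± 90.2. Of 8 tested fusion genes 7 rose (median log2 change 2.58). The tetraspanin gene Cd9 rose from 944 ± 47.9 to 3292 ± 534, the metalloproteinase genes Adam8 from 65.9 ± 32.7 to 1316 ± 502 and Adam12 from 2.22 ± 0.50 to 81.3 ± 51.9, and the purine receptor gene P2rx7 from 9.19 ± 7.34 to 265 ± 150. Many of these genes are also expressed by macrophages, whose 14 markers rose beside them as given above.

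Of 14 acid, protease and attachment genes of resorption, 6 rose and 3 fell, with a median log2 change of 0.27. Tcirg1, which encodes the osteoclast subunit of the proton pump, rose from 234 ± 28.1 to 1776 ± 570.2, and Mmp14, a membrane-type metalloproteinase gene, from 385 ± 27.8 to 1536 ± 246. The kinase gene Src fell from 2962 ± 373 to 1908 ± 316 (a log2 change of -0.64, with a limma adjusted p = 0.00804), the integrin gene Itgav from 18242 ± 834 to 13132 ± 2365 and the anion exchanger gene Slc4a2 from 18191 ± 1258 to 14279 ± 1370.5. Only 1 of the list was called lower without Normal replicate 2, Normal replicate 3 or PVR replicate 1. Itgav also lost its call without PVR replicate 3, and Slc4a2 lost its own without each library in turn except PVR replicate 3, and by edgeR (adjusted p = 0.0593).

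Among 16 podosome genes 12 rose and 0 were called lower by limma, edgeR or DESeq2, with 0 lower at an unadjusted p under 0.05 (median log2 change 1.03). Arpc1b, an actin-nucleating subunit gene, rose from 596 ± 30.1 to 3587 ± 936, Wipf1 from 62.2 ± 15.6 to 397 ± 110 and its partner Was, a blood-cell activator of that complex, from 3.86 ± 1.22 to 102 ± 54.4. Of 15 transcription factor genes of the osteoclast lineage 7 rose and 0 were called lower, by the same 3 tools and at an unadjusted p under 0.05 (median log2 change 0.92). Genes that promote osteoclast formation and a gene that restrains it were among those that rose: Spi1, which encodes PU.1, rose from 18.7 ± 7.22 to 405 ± 194 and Prdm1 from 19.7 ± 10.9 to 166 ± 55.8, while Irf8, a repressor gene, rose from 37.9 ± 17.97 to 354 ± 144. Without Normal replicate 2, 2 of these genes, Fos and Jun, were called lower (limma adjusted p = 0.0023 and 0.00256). The 15 genes summed to 44679 normalised counts in Normal replicate 2, against 144148 and 136602 in Normal replicates 1 and 3. In PVR the sum ran from 73482 to 109578.

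Of 9 tested relatives of the members 5 rose (median log2 change 0.97). The cathepsin genes rose with Ctsk: Ctss, a cathepsin of antigen-presenting cells, from 139 ± 69.9 to 6689 ± 2874, Ctsb from 17586 ± 1185 to 67246 ± 12947 and Ctsl from 4341 ± 347 to 8565 ± 1272. Cd33, a Siglec gene, rose from 9.07 ± 4.98 to 244 ± 122. Without Normal replicate 2 the stress factor gene Atf3 was called lower (log2 change -0.68, limma adjusted p = 0.0194). Of 5 tested genes of the RANK axis 3 rose and 1 fell. Csf1, the macrophage growth factor that osteoclast precursors need, rose from 159 ± 11.5 to 632 ± 165, and its receptor gene Csf1r fell (10038 ± 998 to 7392 ± 947, limma adjusted p = 0.0255), a call lost without Normal replicate 3 or PVR replicate 1 or 2. Tnfrsf11a, which encodes RANK, had 4.12, 4.63 and 11.8 normalised counts in the Normal libraries and 81.3, 145 and 53.8 in the PVR libraries (limma adjusted p = 0.000654), and thus, like Acp5, its lowest PVR value in replicate 3. Tnfrsf11b, the gene of the decoy receptor that binds RANKL, rose from 309 ± 35.4 to 489 ± 50.8. Tnfsf11, the gene of RANKL itself, had too few reads for the test: the Normal libraries held 0 each, and the PVR libraries, by number, 1, 8 and 10.

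**Figure D4:**
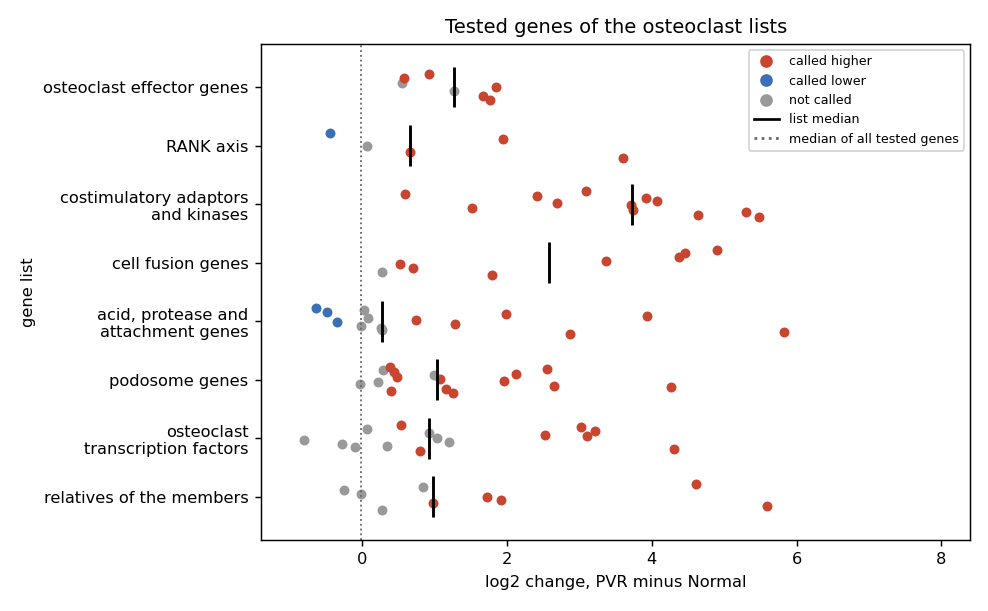
Log2 change, PVR minus Normal, of each tested gene in the osteoclast lists. Points are genes (red called higher, blue called lower, grey not called), black bars are list medians and the dotted line is the median of all tested genes (-0.02). The 12 costimulatory genes are all red, and the 7 effector genes lie between 0.54 and 1.85.

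For each tested gene the 3 genes with the most similar pattern over the 6 libraries were found among 9532 or 9533 genes (mean log2 CPM 3 or more), by Pearson's r of log2(normalised count + 1). They were Brd7, Uvrag and Uhrf2 for Acp5, Slc25a51, Cthrc1 and Retreg1 for Ctsk, Prag1, Mxi1 and Iqgap1 for Ubash3b, Rfx2, Soat1 and E2f6 for Snx10, Erp29, Gna13 and Pakap for Sh3pxd2a, Dot1l, Dcun1d3 and Polr3d for Jdp2, and Alg12, Palm and Trnt1 for Ocstamp. The coefficients ran from 0.979 to 0.999. All rest on the same 6 libraries in 2 groups and are a description of likeness only.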

How the data were processed

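Polyadenylated RNA of primary RPE cells was measured in 6 libraries, grouped and numbered by title. Each deposited file holds a normalised signal, reads per gene that the authors divided by 1 size factor per library, judging by the values: 100% of them are whole multiples of 1 step within 0.001 reads, so reads were recovered. The submitters' processing notes list mm10 and DESeq2 but give neither a role. The aligner, the counter and its annotation: not given in the sources used here.

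Log2(normalised count + 1) was tested with limma 3.58.1 (R 4.3.3; trend, robust) on 15766 genes that passed filterByExpr (minimum count 10), adjusted by Benjamini-Hochberg. Alternatives used edgeR 4.0.16 and DESeq2 1.42.0 on recovered reads, other pseudocounts, filters and scalings, a replicate block, and fewer libraries. On simulated data the limma fit made more false calls than its threshold nominally allows. Same-numbered libraries deviated together (r of deviations 0.206, 0.195 and 0.179 for pairs 1 to 3), but no label says what the shared number marks. The main fit was therefore unpaired, and the replicate block served as an alternative only.

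The members and lists were chosen with earlier results of these data known. Named genes were all members, up to 4 genes per osteoclast list with the smallest p, up to 4 called against most of the list, and the 3 most similar genes of each tested member; 1 gene that this rule names is not reported here. Fos, Jun, Atf3, Itgb3, Tnfsf11 and the marker genes named singly were added after their values were seen. Coordinates and exon lengths are from GENCODE M21 (GRCm38), 1-based, and promoter sequences from RefSeq (GRCm38.p6). The third replicates were registered separately, which no label calls a batch, so replicates 1 and 2 were also fitted alone.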

Additional observations from a re-analysis of the deposited data

How the results depend on the processing

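The number of osteoclast effector genes called higher was 5 and stayed between 4 and 6 in the 17 alternative settings, and none was called lower in any. Leaving out 1 library at a time gave 4 to 5. With the replicate number as a block 6 were called, Jdp2 being added, and no other call among these genes changed with the block. With no filter 4 of 9 were called, without Acp5. The number of calls over all 15766 genes, in either direction, also moved with the setting. It was 4858 in the main fit, 5328 with the block and 3566 to 4775 with 1 library left out. With no filter it was 4987 of 28043 genes. Acp5, Ocstamp and Jdp2 are the genes whose call depended on the setting; none of the 7 changed sign. Of the 79 tested genes in the other osteoclast lists 52 were called higher (44 to 55 over the alternatives) and 4 lower. The count of lower genes was 1 to 5 without 1 library and 2 with replicates 1 and 2 only, settings with fewer libraries. With Normal replicate 2 and PVR replicate 3 both left out, 2 transcription factor genes and 1 relative were called lower, where 0 of either were before, and 1 resorption gene was lower, where 3 were. The block added the transcription factor genes Fosl2, Junb and Bhlhe40 to those called higher. Oscar, Dcstamp and Ocstamp had 2 to 19 reads per library, and this depth sets the wide counting intervals given for them.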
